A study of Mus musculus with 8 samples.

Results

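Serpina3 genes encode secreted and intracellular serine protease inhibitors (serpins), and 6 of them (Serpina3c, Serpina3f, Serpina3g, Serpina3k, Serpina3m and Serpina3n) stood among the 13703 rows of an RNA sequencing table of mouse liver. The members were taken by gene symbol, and the group was selected on earlier values of this same genotype contrast, so their differences between genotypes are a description. Counts of members past the threshold are set beside the share of all genes past it, nothing is read from them, and no p of a member is given. The lists of related genes were also chosen with earlier results of these data known, so their counts and p-values are descriptions too. All 8 libraries came from mice with loxP-flanked Bicd2 (Bicd2fl/fl), a gene for an adaptor between dynein and its cargo, and all mice had been given S-100-induced autoimmune hepatitis. In the 4 Alb-Cre libraries an albumin promoter, active in hepatocytes, drove Cre recombinase. The 4 Alb-WT libraries carried the floxed allele without Cre. S-100 is the soluble fraction of homogenized liver, and 2.5 mg in complete Freund's adjuvant was injected into the peritoneum weekly for 3 weeks. Harvest was 2 weeks after the last injection for all 8 libraries. No untreated liver was analysed here, and ages are not given in the labels used. The labels do not state whether each library is from its own mouse, so the spread between libraries may be technical.

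A serpin carries an exposed reactive centre loop that a protease cuts as if it were a substrate, after which the loop inserts into the body of the inhibitor and the protease is held in an inactive complex. The sequence of this loop sets which proteases are caught. In the mouse the human SERPINA3 gene, for alpha-1-antichymotrypsin, corresponds to a cluster of copies on chromosome 12, of which Serpina3k and Serpina3n are plasma proteins made by hepatocytes, Serpina3n is an acute phase protein, and Serpina3g is an inhibitor of lysosomal cathepsins that interferon-gamma induces in leukocytes. In the RefSeq order the members lie in the sequence Serpina3c, Serpina3f, Serpina3g, Serpina3k, Serpina3m and Serpina3n. Copies between and beside them, such as Serpina3a, Serpina3b, Serpina3i and Serpina3j were not among the rows of the table and are not analysed here.

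The coding bases of the reactive centre loop are shown because the copies were less alike there than over the rest of the coding sequence, by the measures given below. They were read from the GENCODE M21 transcripts (GRCm38, chromosome 12, minus strand for Serpina3c and plus strand for the others). The first 9 codons in lower case are the hinge, the capitals are the variable codons that follow, and the last 5 codons in lower case are alike again, identical in Serpina3g, Serpina3k and Serpina3m and with base differences in the other 3.
Serpina3c: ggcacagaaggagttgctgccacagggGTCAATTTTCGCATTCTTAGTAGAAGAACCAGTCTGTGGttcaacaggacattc
Serpina3f: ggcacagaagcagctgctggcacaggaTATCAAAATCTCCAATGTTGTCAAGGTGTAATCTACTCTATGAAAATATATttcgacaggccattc
Serpina3g: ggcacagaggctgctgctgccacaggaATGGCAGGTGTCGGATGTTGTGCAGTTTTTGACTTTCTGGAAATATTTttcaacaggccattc
Serpina3k: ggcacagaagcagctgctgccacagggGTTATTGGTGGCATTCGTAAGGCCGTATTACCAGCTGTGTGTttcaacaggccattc
Serpina3m: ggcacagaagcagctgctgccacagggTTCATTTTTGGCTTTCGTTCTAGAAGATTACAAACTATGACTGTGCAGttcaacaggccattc
Serpina3n: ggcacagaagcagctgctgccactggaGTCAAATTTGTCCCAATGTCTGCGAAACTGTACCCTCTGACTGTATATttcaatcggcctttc
The variable stretch held 13 codons in Serpina3c, 14 in Serpina3k, 16 in Serpina3g, Serpina3m and Serpina3n and 17 in Serpina3f. In it the members were identical at 39.2% to 62.7% of bases, against 83.0% to 92.9% over the rest of the coding sequence. Gaps counted as differences in the stretch and were left out over the rest, so both ranges are not of one measure. By these measures the stretch was the less alike in 15 of 15 pairs, a count that the unlike treatment of gaps favours. The annotated coding sequence of Serpina3g has 747 bases, and those of the other members have 1254 to 1338.

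The likeness of the copies bears on how well reads can be assigned to them. Serpina3k and Serpina3m were the closest pair, and 19.1% of all 50-base windows of the Serpina3m transcripts occurred unchanged in another Serpina3 gene or pseudogene, most of them in Serpina3k. The share was 4.25% for Serpina3c, 6.90% for Serpina3n, 10.6% for Serpina3f, 14.0% for Serpina3k and 15.5% for Serpina3g. At 100 bases it was 6.09% or less in each of the 6, and at 150 bases 0.331% or less. How the authors counted reads that fit several copies is not given in the sources used here, so values of single copies are uncertain. These shares do not bound the error, since a copy as abundant as Serpina3k could pass on more reads than a rarer copy has of its own.

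The libraries rested on totals of 32793770 to 39157210 reads, as inferred from the steps between low values of the table. Bicd2 was lower in every Alb-Cre library (0.705, 0.568, 0.509 and 0.732 FPKM in replicates 1 to 4) than in every Alb-WT library (2.46 to 3.11 FPKM), with a log2 fold change of -1.24 (SE 0.082, limma adjusted p = 7.25e-05). FPKM is a read number scaled by the length of the gene and by the total of the library, and fold changes here are differences of mean log2(FPKM + 1), Alb-Cre less Alb-WT, which understate those of low genes. A gene was called when its Benjamini-Hochberg adjusted p in limma was under 0.05 over the 11077 rows whose mean level reached 0.5 FPKM. Alb-Cre replicate 4 stood apart. Its Pearson correlation across genes was 0.958 to 0.960 with Alb-Cre replicates 1 to 3 and 0.974 to 0.977 with the Alb-WT libraries, while the range among replicates 1 to 3 was 0.995 to 0.996. The results on members and lists are therefore given with and without it. Hepatocyte markers were abundant throughout, with Alb at 19621 to 27571 FPKM.

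The members spanned more than 4 orders of magnitude and did not move together. Serpina3f and Serpina3g were lower in all Alb-Cre than in all Alb-WT libraries, Serpina3n was higher in all, and Serpina3k and Serpina3m overlapped between genotypes. Of the 5 members in the fit, 2 passed the limma threshold as lower (Serpina3f and Serpina3g), beside 23.3% of all genes tested, and 0 as higher, beside 8.48%, with 0 higher at an unadjusted p under 0.05. The groups did not overlap for 2 members that were lower, beside 21.4% of all genes, and for 1 that was higher, beside 9.27%. Without Alb-Cre replicate 4 the counts were 2 lower and 2 higher (Serpina3k and Serpina3n), where 46.1% and 15.2% of all genes passed. Since this contrast had chosen the members, the counts are no evidence about them, with or without that library.

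**Figure D1:**
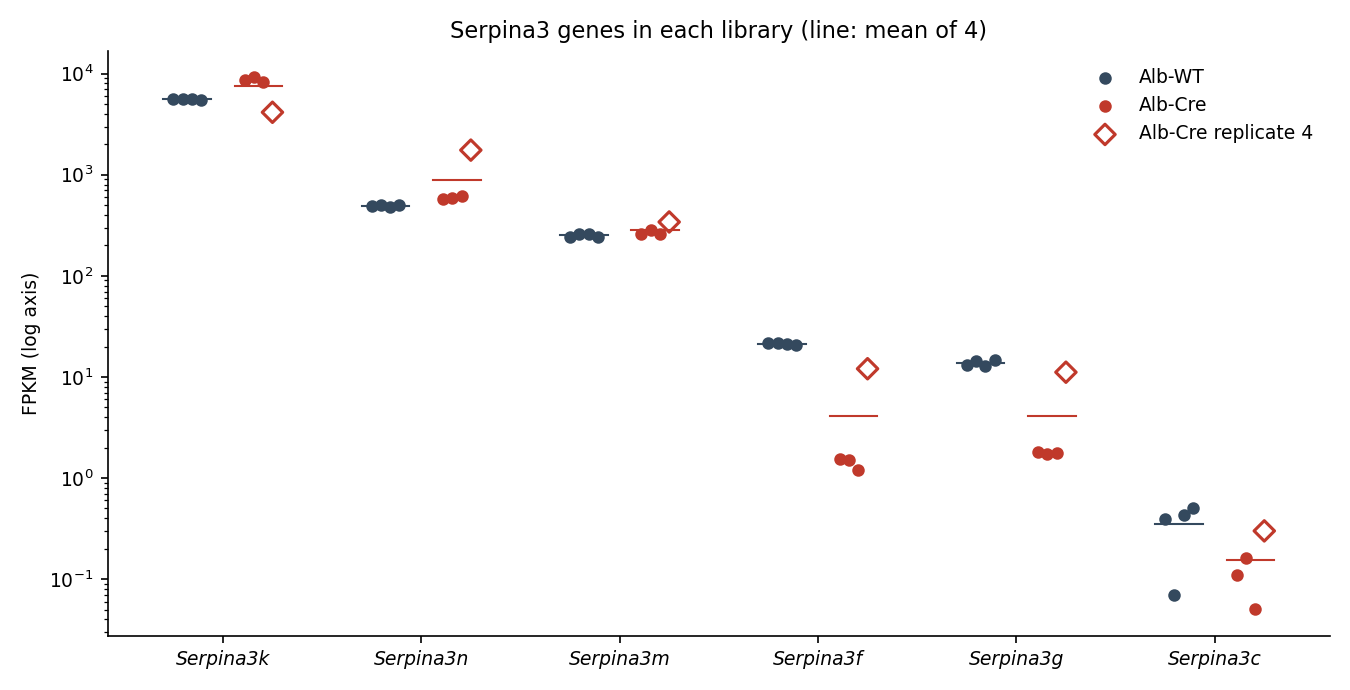
FPKM of each Serpina3 gene on a log axis, 1 point per library, with dark points for Alb-WT, red points for Alb-Cre replicates 1 to 3, an open diamond for Alb-Cre replicate 4 and a line at the mean of 4 libraries. Serpina3f and Serpina3g sit at 1.20 to 1.80 FPKM in Alb-Cre replicates 1 to 3 and at 12.1 and 11.1 FPKM in replicate 4, below every Alb-WT library, while the diamond is the lowest point for Serpina3k and the highest for Serpina3n and Serpina3m.

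Serpina3f and Serpina3g, neighbours in the cluster, showed the largest differences. Serpina3f stood at 1.54, 1.51, 1.20 and 12.1 FPKM in Alb-Cre replicates 1 to 4 and at 21.6, 21.5, 21.3 and 20.7 FPKM in Alb-WT replicates 1 to 4. The Alb-WT libraries were close to each other, Alb-Cre replicates 1 to 3 were far below them, and replicate 4 lay between, without reaching the lowest Alb-WT value. On average Serpina3f reached 4.08 ± 5.32 FPKM in Alb-Cre and 21.3 ± 0.417 FPKM in Alb-WT (SD, n = 4 each), 5.22-fold less in Alb-Cre, and the log2 fold change was -2.60 (SE 0.50). Without replicate 4 the mean was 1.42 ± 0.192 FPKM (SD, n = 3), 15.0-fold below Alb-WT, and the log2 fold change -3.21 (SE 0.064). The reads behind these values numbered 98 to 116 in Alb-Cre replicates 1 to 3 and 1081 to 1911 in the other libraries.

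Serpina3g, also known as Spi2A, was likewise lowest in Alb-Cre replicates 1 to 3, between in replicate 4 and highest in Alb-WT. Within Alb-Cre replicates 1 to 3 and within Alb-WT, the order of libraries differed from that of Serpina3f. Its level was 1.80, 1.75, 1.78 and 11.1 FPKM in Alb-Cre replicates 1 to 4, against 13.3, 14.3, 12.96 and 14.9 FPKM in Alb-WT. Replicate 4 was closer to Alb-WT for this gene, 1.24-fold below its mean, than for Serpina3f, where it was 1.76-fold below. Group means were 4.11 ± 4.68 and 13.9 ± 0.892 FPKM (SD, n = 4 for both), with a log2 fold change of -1.89 (SE 0.44), or -2.42 (SE 0.062) without replicate 4. Leaving out replicate 4 raised the fold between means from 3.37 to 7.81. The ratio of both genes also differed. Serpina3f stood at 139% to 164% of the Serpina3g level in the Alb-WT libraries, at 67.2% to 86.7% in Alb-Cre replicates 1 to 3 and at 108% in replicate 4, so the ratio did not overlap between genotypes, while the order of both genes in replicate 4 was that of Alb-WT. Over the 8 libraries Serpina3f and Serpina3g correlated at r = 0.99, a description over samples that fall into separate groups.

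Promoter sequences are shown for Serpina3f and Serpina3g because both hold the letters of a GAS element, the gamma-activated site found before many genes that interferon-gamma induces, and for Serpina3c and Serpina3n because the related stretch there differs. Serpina3k and Serpina3m were not matched. Each is the 250 bases before the RefSeq start in GRCm38.p6, written along the gene's strand with GAS letters (TTCNNNGAA) in capitals. The positions are chr12:104214294-104214543 on the plus strand for Serpina3f, chr12:104235897-104236146 on the plus strand for Serpina3g, chr12:104153873-104154122 on the minus strand for Serpina3c and chr12:104406458-104406707 on the plus strand for Serpina3n.
Serpina3f: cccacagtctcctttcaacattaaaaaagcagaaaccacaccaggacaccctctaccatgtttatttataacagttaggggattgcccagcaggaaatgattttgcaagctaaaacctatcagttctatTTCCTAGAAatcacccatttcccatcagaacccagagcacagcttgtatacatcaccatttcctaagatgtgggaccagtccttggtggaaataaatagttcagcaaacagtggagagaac
Serpina3g: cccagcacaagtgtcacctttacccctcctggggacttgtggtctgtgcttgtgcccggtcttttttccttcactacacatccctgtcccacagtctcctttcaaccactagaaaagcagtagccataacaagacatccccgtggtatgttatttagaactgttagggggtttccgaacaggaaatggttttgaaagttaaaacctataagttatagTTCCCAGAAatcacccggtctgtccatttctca
Serpina3c: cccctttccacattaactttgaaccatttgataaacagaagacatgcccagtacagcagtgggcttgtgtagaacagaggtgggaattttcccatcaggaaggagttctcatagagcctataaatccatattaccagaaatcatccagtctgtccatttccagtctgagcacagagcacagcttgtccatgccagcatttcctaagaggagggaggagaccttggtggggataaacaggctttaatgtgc
Serpina3n: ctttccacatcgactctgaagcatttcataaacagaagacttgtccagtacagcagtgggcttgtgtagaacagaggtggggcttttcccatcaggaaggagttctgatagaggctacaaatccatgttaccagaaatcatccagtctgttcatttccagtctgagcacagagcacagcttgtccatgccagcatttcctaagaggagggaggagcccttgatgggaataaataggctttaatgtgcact
Counted from the start, with -1 for the base just before it, the match lay at -121 to -113 in Serpina3f (TTCCTAGAA) and at -33 to -25 in Serpina3g (TTCCCAGAA). Counted from 1 at the 5′ end of the motif, with Serpina3g as the reference, Serpina3f carried C5T, and the aligned stretch TTACCAGAA of both Serpina3c and Serpina3n carried C3A, which breaks the pattern. Serpina3f has another annotated start, and its match lies at -210 to -202 from that one. Of all 32851 promoters in the RefSeq table, 7.02% held these letters on either strand. The ISRE core GAAANNGAA (7.13% of promoters) was in Serpina3f only among the 4 members, and it overlapped the GAS letters there. NF-kB letters GGGNNTTCC (4.98%) were in Serpina3g, and C/EBP letters TTGCNNAA (9.56%) were at 2 places in Serpina3f. None of these 4 patterns was in the Serpina3c or Serpina3n window. The letters are not particular to members: the neighbouring copy Serpina3i, which has no row in the table, holds TTCCCAGAA at -102 to -94 and the NF-kB letters too. A match of letters is a description and not evidence of binding.

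**Figure D2:**
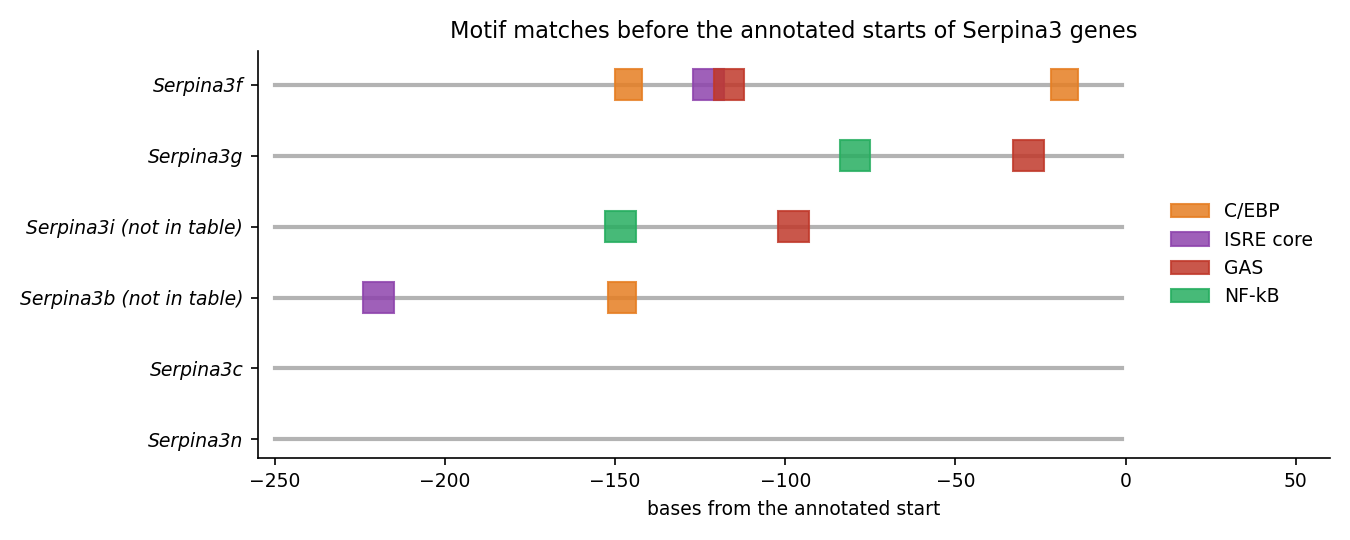
Positions of 4 motif patterns in the 250 bases before the annotated start (x axis, bases from the start; 1 line per gene; coloured boxes for matches on either strand). GAS boxes lie at -121 to -113 in Serpina3f and at -33 to -25 in Serpina3g, and the Serpina3c and Serpina3n lines carry no box.

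The genes of the interferon-gamma response, a list of immunity-related GTPases, guanylate-binding proteins, antigen processing genes and signalling factors, were lower in Alb-Cre livers with Serpina3f and Serpina3g. Of 29 tested, 25 were called lower, where 23.3% of all genes were, and 0 higher by limma (0 higher at an unadjusted p under 0.05). The median log2 fold change was -1.32, against -0.13 over all genes tested. The list was chosen with earlier results of these data known, so these values are a description. Tgtp1, a GTPase of resistance to intracellular pathogens, fell from 38.1 ± 4.18 to 2.78 ± 4.40 FPKM (SD, n = 4 each; log2 fold change -3.95, SE 0.57, limma adjusted p = 0.00237). Igtp fell by 2.75 on the log2 scale (SE 0.43, limma adjusted p = 0.00324), Iigp1 fell by 1.66 (SE 0.14, limma adjusted p = 2.27e-04) and Irgm1 fell by 1.29 (SE 0.15, limma adjusted p = 7.59e-04). In Alb-Cre replicate 4 these 4 genes stood at 9.39, 54.1, 88.5 and 16.1 FPKM, above the other Alb-Cre and below every Alb-WT library, as Serpina3f and Serpina3g did. Genes outside this list, such as Serpina7 and Elane, held that position too, and its share over all genes is not given here. The 4 genes were named for the smallest p, and not all of the list shared this position. For 19 of the 29 genes all Alb-Cre libraries lay below all Alb-WT libraries, beside 21.4% of all genes, and the rest overlapped. Replicate 4 held the highest of the 8 values for 2 of the 29 genes (6.90%), beside 26.0% of all genes tested. Without replicate 4 all 29 were called lower, with a median of -1.69, where 46.1% of all genes were. Leaving out any one of the other 7 libraries lowered the count instead, to 15 (without Alb-Cre replicate 1 or 3), 16 (without Alb-Cre replicate 2 or Alb-WT replicate 1 or 3) or 18 (without Alb-WT replicate 2 or 4).

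Markers of myeloid cells, and of some other cell types, were lower with both genes. Over all genes tested 23.3% were called lower and 8.48% higher, the shares to set beside each count of marker calls. The summed level of 6 Kupffer cell markers was 120 to 132 FPKM in Alb-Cre replicates 1 to 3, 373 in replicate 4 and 424 to 451 in Alb-WT, and 6 of 6 were called lower. For 7 monocyte and macrophage markers the sums were 95.0 to 105, 450 and 452 to 480 FPKM, with 6 of 7 called lower, and for neutrophils 6.77 to 7.09, 85.9 and 262 to 324 FPKM, with 4 of the 4 tested called lower and Ly6g, Mpo, Camp and Ngp not among the rows. T cell markers summed to 1.13 to 1.49, 7.08 and 4.42 to 5.27 FPKM over the 5 of 7 that were listed, and B and plasma cell markers to 2.95 to 3.70, 15.3 and 5.88 to 7.10 FPKM. No T cell marker of 4 tested and no B cell marker of 3 was called. In Alb-Cre replicates 1 to 3 both sums lay below every Alb-WT library. In replicate 4 both sums lay above Alb-WT, unlike Serpina3f and Serpina3g. Marker calls without replicate 4 are not given here, so nothing is read from the missing calls. NK cell markers summed to 0.525 to 1.23, 9.20 and 6.28 to 9.52 FPKM, with 1 of 2 called lower. Cholangiocyte markers summed to 36.2 to 41.0, 61.8 and 79.0 to 92.2 FPKM, with 4 of 4 called lower, and stellate cell markers to 31.1 to 33.1, 39.0 and 48.9 to 51.7 FPKM, with 2 of 6 called lower and 1 higher. Erythroid markers summed to 101 to 151, 55.2 and 248 to 359 FPKM over the 2 of 4 listed, with 1 of 2 called lower. Sinusoidal endothelial markers summed to 34.4 to 36.2, 24.5 and 32.3 to 34.2 FPKM, with 2 of 5 called lower. The part of these cells in the levels of Serpina3f and Serpina3g was not tested. In RNA of whole liver, fewer cells of a type and less RNA per cell cannot be told apart.

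Serpina3k, a plasma inhibitor also called contrapsin, was the most abundant copy. It stood at 8574, 9194, 8228 and 4149 FPKM in Alb-Cre replicates 1 to 4 and at 5591, 5676, 5595 and 5451 FPKM in Alb-WT. Alb-Cre replicates 1 to 3 lay above every Alb-WT library and replicate 4 below every one, so the groups overlapped. Mean levels were 7536 ± 2293 FPKM in Alb-Cre and 5578 ± 93.7 FPKM in Alb-WT (SD, n = 4 for both), and the log2 fold change was 0.37 (SE 0.24). Without replicate 4 the mean was 8665 ± 490 FPKM (SD, n = 3), 1.55-fold that of Alb-WT, and the log2 fold change 0.63 (SE 0.046). Serpina3k supplied 90.3% to 91.3% of the summed FPKM of the 6 copies in Alb-Cre replicates 1 to 3, 66.2% in replicate 4 and 87.5% to 87.9% in Alb-WT. The sum itself was 9406, 10068, 9109 and 6265 FPKM in Alb-Cre and 6360, 6468, 6374 and 6228 FPKM in Alb-WT, so replicate 4 was within the Alb-WT range in the sum while its make-up differed. The 7 hepatocyte markers summed to 41529 to 43057 FPKM in Alb-Cre replicates 1 to 3, 31059 in replicate 4 and 40360 to 40991 in Alb-WT. Of the 7, 2 were called lower, where 23.3% of all genes tested were. The part of the difference in these markers in the level of Serpina3k was not tested.

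Serpina3n, an acute phase inhibitor of leukocyte proteases such as granzyme B and elastase, was higher in every Alb-Cre library, most of all in replicate 4. Its level was 572, 589, 619 and 1752 FPKM in Alb-Cre replicates 1 to 4 and 489, 499, 483 and 499 FPKM in Alb-WT replicates 1 to 4. Replicates 1 to 3 exceeded the highest Alb-WT library by a small margin, and replicate 4 was 2.95-fold above the mean of the other Alb-Cre libraries. Alb-Cre averaged 883 ± 580 FPKM and Alb-WT 492 ± 7.82 FPKM (SD, n = 4 for both), with a log2 fold change of 0.66 (SE 0.33). Without replicate 4 the difference was smaller and its error smaller still, with a mean of 593 ± 23.7 FPKM (SD, n = 3), 1.20-fold that of Alb-WT, and a log2 fold change of 0.27 (SE 0.041).

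Serpina3m, the closest copy to Serpina3k, differed least. It stood at 257, 282, 260 and 341 FPKM in Alb-Cre replicates 1 to 4 and at 245, 257, 262 and 243 FPKM in Alb-WT. The groups overlapped, and replicate 4 was the highest of the 8 libraries. Averages of 285 ± 39.1 FPKM in Alb-Cre and 252 ± 9.10 FPKM in Alb-WT (SD, n = 4 for both) went with a log2 fold change of 0.17 (SE 0.098), or 0.08 (SE 0.049) without replicate 4. Serpina3m and Serpina3n correlated at r = 0.94 over the 8 libraries, while Serpina3k correlated with them at -0.33 and -0.44 and with Serpina3f and Serpina3g at -0.85 and -0.89.

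Ratios between copies within a library do not depend on the scale factor of that library. Serpina3n stood at 6.40% to 7.52% of the Serpina3k level in Alb-Cre replicates 1 to 3, at 42.2% in replicate 4 and at 8.64% to 9.15% in Alb-WT. Serpina3m stood at 3.00% to 3.16%, 8.23% and 4.38% to 4.68% of Serpina3k in the same order. Both ratios were thus lower in Alb-Cre replicates 1 to 3 than in any Alb-WT library and higher in replicate 4 than in any other library. Serpina3n relative to Serpina3m was 209% to 238%, 513% and 184% to 205%.

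**Figure D3:**
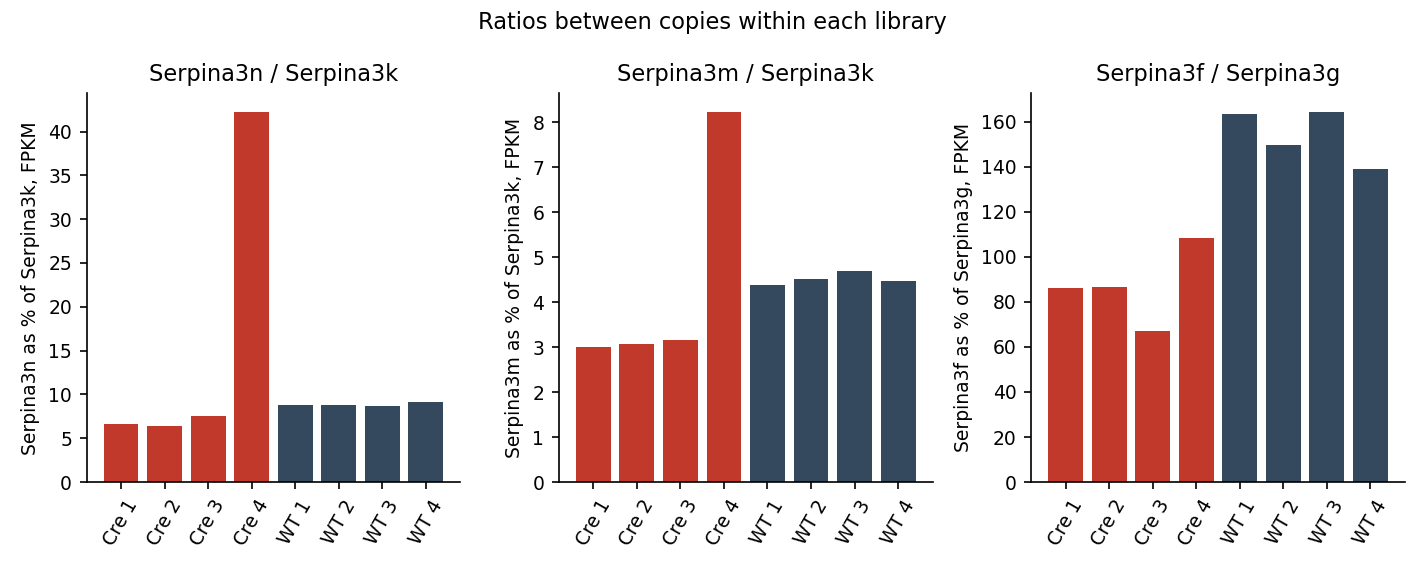
Level of a copy as a percentage of another copy's FPKM in the same library, 1 bar per library, red for Alb-Cre and dark for Alb-WT, each axis starting at 0. Serpina3n reaches 42.2% of Serpina3k in Alb-Cre replicate 4 against 6.40% to 9.15% in the other 7 libraries, and Serpina3f exceeds Serpina3g (over 100%) in all Alb-WT libraries and in Alb-Cre replicate 4.

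Serpina3c was the lowest copy, under the mean of 0.5 FPKM required for the fit. It stood at 0.110, 0.162, 0.0506 and 0.300 FPKM in Alb-Cre replicates 1 to 4 and at 0.391, 0.0697, 0.435 and 0.50 FPKM in Alb-WT, from 4 to 26 and from 6 to 41 reads. Alb-WT replicate 2 lay within the Alb-Cre range, so the groups overlapped. That library had 6 reads and the other 3 Alb-WT libraries 29 to 41, a spread whose source was not tested. Expressed per length, the order of mean levels in Alb-WT was Serpina3k, Serpina3n, Serpina3m, Serpina3f, Serpina3g and Serpina3c, and no neighbouring pair of that order overlapped over the 4 Alb-WT libraries. In Alb-Cre replicates 1 to 3 Serpina3g stood above Serpina3f, and the rest of the order was the same.

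The scaling of the libraries moved the fold changes. Over all genes the median log2 fold change was -0.13, and 73.3% of the calls were lower. With a common FPKM sum the median gene was at -0.19 and the lower share 82.9%, with median-of-ratios scaling 0.02 and 44.5%, and with quantile normalization 0.02 and 49.3%. Under these scalings Serpina3f and Serpina3g remained lower, and Serpina3k, Serpina3m and Serpina3n remained higher on average. With median-of-ratios scaling, where 13.6% of all genes were called lower and 16.9% higher, Serpina3m (log2 fold change 0.37) and Serpina3n (0.85) passed the threshold as well. Relative to the median gene, Serpina3f was at -2.47 in the fit as reported and at -2.50 to -2.47 under the other 3 scalings, Serpina3g at -1.76 and at -1.77 to -1.75, Serpina3k at 0.49 and at 0.24 to 0.55, Serpina3m at 0.30 and at 0.13 to 0.35, and Serpina3n at 0.78 and at 0.51 to 0.84.

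The acute phase and interleukin-6 list, to which Serpina3n is related as a target, did not move one way with the genotype. Of 29 tested, 4 were called lower and 3 higher, where 23.3% and 8.48% of all genes were, with a median log2 fold change of -0.17. Leaving out any one library other than Alb-Cre replicate 4 left 1 or 2 lower and 0 to 3 higher. Saa1 and Saa2, serum amyloid A proteins of the acute phase, rose to 2240 ± 1477 and 2142 ± 1968 FPKM from 883 ± 71.2 and 607 ± 40.9 FPKM (SD, n = 4 each; limma adjusted p = 0.0318 and 0.0363). Saa4 rose by a log2 fold change of 0.29 (limma adjusted p = 0.0196). Il6ra, a chain of the interleukin-6 receptor, fell by 0.61 on the log2 scale (limma adjusted p = 0.00948), Cebpd fell by 0.59 (limma adjusted p = 0.0245), Orm3 fell by 2.55 (limma adjusted p = 0.0253) and Hamp, for the iron hormone hepcidin, fell by 0.37 (limma adjusted p = 0.0466). Of these 7, all but Il6ra lost the call in 7 to 9 of the 15 or 16 alternatives run for each gene, mostly when single libraries other than Alb-Cre replicate 4 were left out.

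In Alb-Cre replicate 4 this list shared the position of Serpina3n. For 22 of its 29 genes (75.9%) replicate 4 held the highest of the 8 values, beside 26.0% of all genes tested. Lcn2, for the iron-siderophore binding lipocalin, reached 1213 FPKM there and at most 278 FPKM in the other libraries. Apcs, for serum amyloid P, reached 1395 FPKM against at most 469 FPKM, and Socs3, a feedback inhibitor of interleukin-6 signalling, 35.1 FPKM against at most 12.6 FPKM. These 3 genes were picked after their values were seen. Without replicate 4, 21 of the 29 were called lower and 5 higher, with a median of -0.39, where 46.1% and 15.2% of all genes were called.

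**Figure D4:**
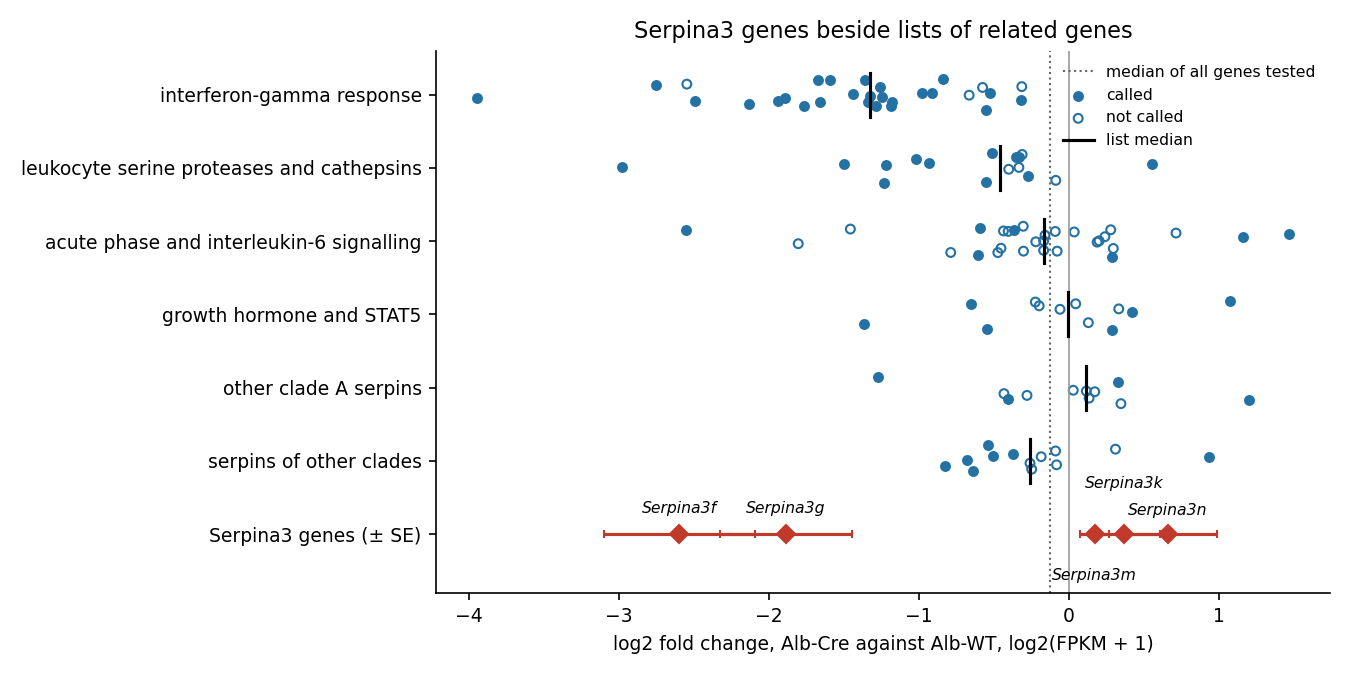
Log2 fold change (Alb-Cre against Alb-WT, log2(FPKM + 1) scale) of each tested gene of the lists of related genes, filled where called and open where not, with list medians as black bars and the 5 tested Serpina3 genes as red diamonds with their standard errors. Serpina3f (-2.60) and Serpina3g (-1.89) lie in the range of the interferon-gamma response (median -1.32), and the other 3 diamonds lie above 0. Both also lie in the range of the protease list, from Elane (-2.98) to Prss8 (0.55). Serpina3g also lies in that of the acute phase list, from Orm3 (-2.55) to Saa2 (1.47).

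Other serpins of clade A, mostly secreted by hepatocytes, moved in both directions. Of 15 in the list, 13 were among the rows and 11 were tested, with 2 called lower, 2 higher (23.3% and 8.48% of all genes) and a median log2 fold change of 0.11. Serpina7, the thyroxine-binding globulin, fell from 58.3 ± 1.89 to 25.4 ± 12.9 FPKM (SD, n = 4 each; log2 fold change -1.27, SE 0.25, limma adjusted p = 0.00861), and Agt, angiotensinogen, fell by 0.41 on the log2 scale (limma adjusted p = 0.0127), a call lost with median-of-ratios scaling. Serpina12, vaspin, rose from 8.94 ± 0.694 to 22.8 ± 7.06 FPKM (log2 fold change 1.20, SE 0.22, limma adjusted p = 0.00707), and Serpina1b, an alpha-1-antitrypsin copy, rose by a log2 fold change of 0.33 (limma adjusted p = 0.0169), a call lost in 4 of 16 alternatives. As with Serpina3k, replicate 4 was the lowest of the 8 libraries for 6 of the 11 genes (54.5%), beside 12.6% of all genes. Without it, 4 were called lower and 5 higher (46.1% and 15.2% of all genes), and without any one of the other libraries 2 lower and 1 or 2 higher, the 1 without Alb-WT replicate 1 or 3. The copies of alpha-1-antitrypsin are near-identical, so the value of a single copy is uncertain.

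Of 23 serpins of other clades 14 were among the rows and 13 were tested, with 6 called lower, 1 higher (23.3% and 8.48% of all genes) and a median of -0.26. Serping1, the C1 inhibitor of complement, fell from 634 ± 20.05 to 448 ± 39.2 FPKM (SD, n = 4 each; log2 fold change -0.50, limma adjusted p = 0.00387). The intracellular inhibitors Serpinb1a, Serpinb9 and Serpinb8 fell by 0.83, 0.64 and 0.38 on the log2 scale (limma adjusted p = 0.00396, 0.00789 and 0.0114), the last not called with quantile normalization. Serpine2, protease nexin, rose from 0.675 ± 0.0275 to 2.23 ± 0.552 FPKM (limma adjusted p = 0.00174). Without replicate 4, 8 were called lower and 2 higher (46.1% and 15.2% of all genes), and without any one of the other libraries 4 or 5 lower and 1 or 2 higher, the 2 without Alb-WT replicate 4.

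A list of proteases was also lower in part, and whether the Serpina3 proteins inhibit them was not tested. Of 16 tested genes of the list of leukocyte serine proteases and cathepsins, out of 23, 11 were called lower and 1 higher (23.3% and 8.48% of all genes), with a median of -0.46. The list also holds Plg (called lower), Klkb1 (not called) and Prss8 (called higher), which are not particular to leukocytes. Elane, neutrophil elastase, fell from 11.6 ± 1.82 to 0.837 ± 1.31 FPKM (SD, n = 4 each; log2 fold change -2.98, SE 0.36, limma adjusted p = 0.00106). The lysosomal enzymes Ctsb, Ctsa and Ctsh fell by 0.55, 0.52 and 0.33 on the log2 scale (limma adjusted p = 0.00323, 0.00271 and 0.00360), the last not called with median-of-ratios scaling. Prss8 rose by a log2 fold change of 0.55 (limma adjusted p = 0.0350), a call lost in 8 of 15 alternatives. The neutrophil markers given above moved with Elane, itself one of them, and their part was not tested. Without replicate 4, 13 were called lower and 1 higher (46.1% and 15.2% of all genes), and without any one of the other 7 libraries 6 were called lower and the Prss8 call was lost.

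Growth hormone acts on liver through STAT5, and rodent Serpina3 genes are among its known targets. Of 12 tested genes of that pathway, 3 were called lower and 3 higher (23.3% and 8.48% of all genes), with a median of -0.01. Stat5b fell from 13.2 ± 0.136 to 8.01 ± 0.435 FPKM (SD, n = 4 each; log2 fold change -0.66, SE 0.058, limma adjusted p = 2.55e-04), with replicate 4 at 8.22 FPKM, among the other Alb-Cre libraries. Bcl6, a repressor that opposes STAT5, fell by 1.36 and the kinase Jak2 fell by 0.55 on the log2 scale (limma adjusted p = 0.00415 and 0.0115). Onecut1 rose by a log2 fold change of 1.07, the hormone Igf1 by 0.42 and Socs2 by 0.28 (limma adjusted p = 0.00152, 0.0101 and 0.0472), and the Socs2 call was lost in 8 of 15 alternatives. Without replicate 4, 4 were called lower and 5 higher (46.1% and 15.2% of all genes), and without any one of the other libraries 3 lower and 2 or 3 higher. Every list gene named above with an adjusted p was also called without replicate 4, in the same direction.

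For each tested member the 5 other genes most like it were taken by Pearson r over the 8 libraries among 9284 genes averaging 1 FPKM or more. Since 3 levels (Alb-Cre replicates 1 to 3, replicate 4 and Alb-WT) set most of the spread, these values describe the order of levels only. Serpina3f was most like Serpina7, Csf1r (the macrophage growth factor receptor), Arhgap19, Ciita (the class II transactivator) and Macf1, all at r = 0.999. Serpina3g was most like Cfp (properdin), Ip6k1, Arhgap30, Hmox1 (haem oxygenase) and Macf1 at 0.998 to 0.999. For Serpina3k they were Bbox1, Cyp4a12a, Ces1e, Mup21 and Car3 at 0.995 to 0.997. Cyp4a12a, for example, stood at 125 to 141 FPKM in Alb-Cre replicates 1 to 3, 28.5 in replicate 4 and 48.1 to 51.4 in Alb-WT. For Serpina3n they were Krt18, Nrg4, Il1r1 (the interleukin-1 receptor), Pgm3 and Nek6 at 0.993 to 0.996, and Il1r1 stood at 17.9 to 19.0, 54.1 and 14.0 to 15.1 FPKM in the same order. For Serpina3m they were A2ml1, Drg2, Slc35e1, Cpb2 and Gfpt1 at 0.970 to 0.982.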

How the data were processed

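Per the labels' protocols, liver RNA was isolated with Trizol for Illumina sequencing. Descriptions of the samples name 10x Genomics, although the table has 1 column per library. The authors deposited FPKM values. The submitters' processing notes name HISAT2 2.0.5, a read aligner, and list a mouse and a human build with no role. Not given in the sources used here are the counting tool, annotation, strand setting and treatment of reads shared between copies. Groups and replicate numbers came from the titles.

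The table held 13703 rows and 0 values of 0. With merged exon lengths of GENCODE M21, the deposited FPKM values gave whole reads in every library for 94.5% of 13442 genes (tolerance 0.01). Of such values from 1 to 20, 75.7% were even, as when both mates of a pair are counted, so reads are not independent molecules.

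The fit used limma 3.58.1 (R 4.3.3) on log2(FPKM + 1) (empirical Bayes, intensity trend, genotype only, all 8 libraries) over 11077 rows whose mean reached 0.5 FPKM, after tests on simulated data. Python 3.11.15 with pandas 2.3.3 and Biopython 1.88 was used for the rest. The text names all members, Bicd2, up to 4 called genes of each list and direction with the smallest p, and the 5 genes most like each member. Members and lists were chosen with earlier results of these data known. The list of other Serpina3 copies had 0 of 5 genes among the rows. Promoters matched 4 of 6 members. A planned comparison of protein sequences was replaced by one of coding bases, chosen later. Alternatives covered pseudocount, filter, scaling, trend, pairing, summed copies and single libraries left out.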

Additional observations from a re-analysis of the deposited data

Results flagged for a closer look

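In 86 groups of 4 values (members, their ratios, and named genes in each genotype) the highest or lowest library was set against the gap to its nearest neighbour, a comparison that chance alone flags in about 1 in 20 groups. Of the 86, 20 stood out, 19 of them for Alb-Cre replicate 4, which was high in 16 and low in 3.

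Among the Serpina3 genes, Serpina3f at 12.1 FPKM, Serpina3g at 11.1 FPKM and Serpina3n at 1752 FPKM in that library lay far above the other 3 Alb-Cre libraries (1.20 to 1.54, 1.75 to 1.80 and 572 to 619 FPKM). So did Serpina3n as a percentage of Serpina3k (42.2%) and of Serpina3m (513%), and Serpina3m as a percentage of Serpina3k (8.23%).

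Interferon-gamma response genes were high there as well, with Igtp at 54.1, Iigp1 at 88.5 and Tgtp1 at 9.39 FPKM. So were the acute phase genes Saa1 at 4447, Saa2 at 5093 and Orm3 at 52.5 FPKM, the serpin Serpina7 at 44.7 FPKM, the elastase gene Elane at 2.80 FPKM, and Jak2 at 4.57 and Bcl6 at 3.72 FPKM. Low values in replicate 4 were those of Serpina12 (12.2 FPKM), Serpine2 (1.41 FPKM) and Onecut1 (0.789 FPKM). In Alb-WT replicate 1, Bcl6 was low at 5.18 FPKM, against 6.43 to 6.66 FPKM in the other Alb-WT libraries.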

How the results depend on the processing

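The 5 tested members kept their direction under every alternative run, and Serpina3f and Serpina3g were called in each of those that kept them as separate rows. Since this contrast had chosen the members, neither is evidence about them. The 2 members called became 4 with median-of-ratios scaling, where 13.6% of all genes were called lower and 16.9% higher. Leaving out single libraries gave 2 to 4 called members. The 4 came only without Alb-Cre replicate 4, where 46.1% of all genes were called lower and 15.2% higher. With Serpina3f and Serpina3g summed, and the other 4 copies summed, 1 of 2 sums was called (Serpina3f with Serpina3g, log2 fold change -2.48), while the other stood at 0.44. Over all genes 3521 were called, 1760 when the fit was limited to rows whose mean reached 5 FPKM and, without single libraries, 1738 to 6768. These counts were 1803, 2176, 1842 and 6768 without Alb-Cre replicates 1 to 4 and 1769, 2034, 1738 and 2194 without Alb-WT replicates 1 to 4. Of the 110 tested list genes 61 were called, and 36 to 97 without single libraries, with 37 without Alb-Cre replicate 1, 37 without Alb-Cre replicate 3, 97 without Alb-Cre replicate 4, 38 without Alb-WT replicate 1 and 36 without Alb-WT replicate 3. The causes were not tested.

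Same-numbered libraries deviated from their group means with correlations of -0.06, -0.05, -0.10 and 0.01 in replicates 1 to 4. These values cannot decide whether the numbers pair the samples, since replicate 4 weighs on the Alb-Cre mean from which all Alb-Cre libraries deviate. With the replicate number as a block, 2244 genes were called over all genes and 2 members. Among the other values 648 stayed on their side of the threshold or, for counts of calls in a list, within a set fold of the count as reported. A further 67 lost the call, 4 gained it and 55 list counts moved beyond that fold. Serpina3c rested on 4 to 41 reads per library.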
